A study of Mus musculus with 4 samples.

Results

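The genes described here are the homeobox and T-box genes outside the Hox clusters, chosen by gene symbol from the Msx, Dlx, Prrx, Pitx, Alx, Shox2, Lhx, Isl, Lmx1, Meis, Pbx, Irx, Six2 to Six6, Nkx, Barx, Hmx, Satb, Cux and Tbx families. Probe sets annotated to exactly 1 gene gave 77 such genes, out of 19938 genes on the array. Each of the 77 had 1 such probe set. The mean signal over the 4 arrays passed the filter on low values for 39 of the 77, and the other 38 were not tested.

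Homeobox proteins bind DNA through a homeodomain, and T-box proteins through a T domain. Both kinds of transcription factor set the identity and position of tissues in the embryo, often in pairs with cofactors, and many stay on in adult epithelium or connective tissue. In the mammary gland Tbx3 and Msx2 are best known from the embryonic placode and bud, where epithelium and mesenchyme signal to each other.

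RNA came from terminal end buds, the growing tips of the pubertal ducts, dissected from the mammary glands of female C57/BL6 mice. Their age was 4.5 weeks per the sample labels and 24 to 25 days per the series text. Knockout mice were Ovol2flox/-;K14-Cre, with Ovol2 deleted from the floxed allele by Cre under the promoter of the basal keratin gene Krt14, and with the other allele null in every cell. Control mice were Ovol2flox/+, and the protocol allows K14-Cre in some of them while the sample characteristics list none. Each of the 2 control arrays held RNA pooled from 2 mice, and each of the 2 knockout arrays from 3 mice, so pool size differed with genotype. Ovol2 encodes a zinc finger repressor known for restraining epithelial-mesenchymal transition, and the study asked for early changes after its loss.

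Ovol2 itself had a log2 difference of -0.39 ± 0.16 between knockout and control, short of the threshold (limma adjusted p = 0.17), with a signal near the filter level. Of 15 luminal markers, all of which passed the filter, 2 rose and 13 did not pass the threshold (median 0.031). All 15 basal markers passed the filter too, and 7 rose and 3 fell (median 0.21), with Lgr5 at 1.08 ± 0.15 and Oxtr at 0.94 ± 0.15 among those that rose and Nrg1 at -0.66 ± 0.078 and Trp63 at -0.36 ± 0.064 among those that fell. Fibroblast markers were higher in the knockout arrays, with 14 of 17 tested markers past the threshold, a median log2 difference of 1.07, and a summed linear signal of 31878 to 37804 against 16118 to 17186 in the controls. Of the 18 fibroblast markers on the array 1 lay under the filter level in all 4 arrays, and none was listed at 0. Endothelial markers rose for 5 of 12 tested genes (median 0.56, summed signal 8093 to 9564 against 5711 to 6721), and adipocyte markers for 6 of 7 (median 0.58, summed signal 8210 to 8873 against 5893 to 6196). Of the 12 adipocyte markers on the array 5 lay under the filter level in all 4 arrays. Their differences ran from -0.055 for Plin4 to 0.13 for Retn. Plin1, the tested adipocyte marker that did not pass, had a difference of -0.084 ± 0.15. The median over all 12 adipocyte markers was 0.23. Lymphocyte markers fell for 2 of 4 tested genes (median -0.64, summed signal 1674 to 1702 against 2694 to 3307), nerve and Schwann cell markers rose for 2 and fell for 1 of 7, and the 4 tested skeletal muscle markers did not pass. In pooled tissue RNA, a change in the number of cells of a type and a change in RNA per cell cannot be told apart.

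Values below are log2(signal + 16) after quantile normalization, and a difference is the knockout mean minus the control mean on that scale, with its SE from limma and n = 2 arrays per group. A gene is called when its adjusted p (limma, Benjamini-Hochberg over 11963 tested genes) is below 0.05. A probe set's signal depends on its probes, so levels are compared between arrays and not between genes.

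Most of these developmental regulators did not pass the threshold in the knockout end buds. Of the 39 tested members, Prrx1 rose, Pbx3 fell and 37 did not pass, so 5.13% of members were called against 10.7% of all tested genes. Higher calls made up 6.29% of all tested genes and lower calls 4.45%. The median difference of the 39 was -0.12, against -0.022 for all tested genes. Of the 39 differences 28 were negative, against 6662 of 11963 for all tested genes. The median of the 39 moved with single arrays, to -0.068 without control replicate 1, -0.059 without knockout replicate 1 and -0.18 without knockout replicate 2. Over the 14 members from the 60th percentile of mean signal up, the median was 0.0040, and 9 were positive. Between the 40th and 60th percentile it was -0.15 over 25 members, against -0.051 for all tested genes there. In that band 4% of the members were called, against 6.32% of all tested genes. From the 60th percentile up these shares were 7.14% and 13%. At an unadjusted p below 0.05 there were 4 members, which were Prrx1, Pbx3, Lmx1b and Nkx2-2, or 4 of 39 where 25.5% of all tested genes had such a p. The groups of arrays did not overlap for 20 of 39 members (51.3%), against 56.3% of all tested genes. The knockout arrays lay above for 6 of these (26.4% of all tested genes did so) and below for 14 (29.9%). With no filter, 5 of the 77 were called where 6.06% of all genes were, with 3 higher (3.81% of all genes) and 2 lower (2.25%). Among the 37 members that were not called, the 95% intervals lay between -0.72 and 0.37, so that none reached a 2-fold change in either direction.

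**Figure D1:**
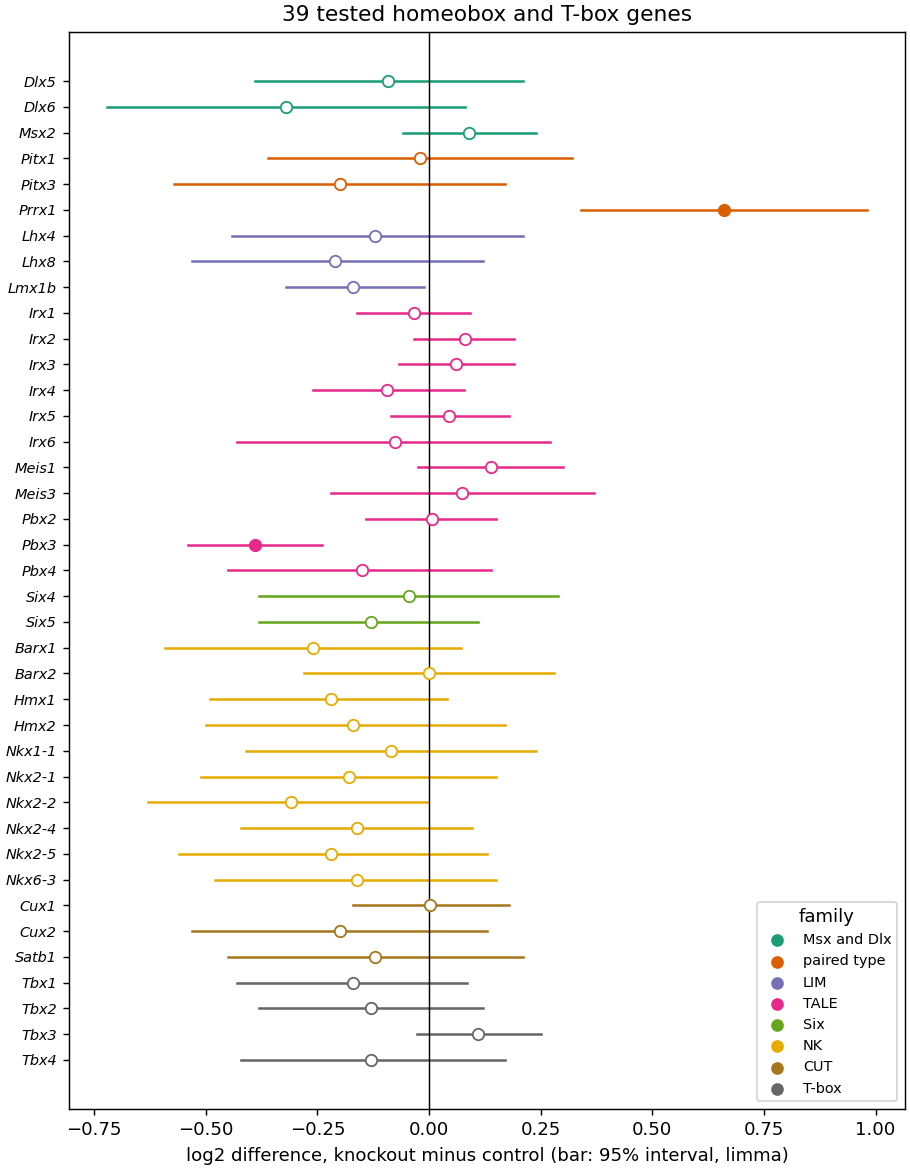
Log2 difference between knockout and control (x axis) for the 39 tested homeobox and T-box genes (y axis, coloured by family), with 95% intervals from limma and n = 2 arrays per group; filled points passed the threshold. Prrx1 at 0.66 and Pbx3 at -0.39 are the filled points, and the intervals of most other genes cross 0.

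The paired-type homeobox genes held the member that rose. Prrx1, a homeobox gene of limb, craniofacial and other embryonic mesenchyme, read 7.98 and 8.26 in controls against 8.69 and 8.86 in knockouts. Both knockout arrays lay above both controls, with a gap of 0.43. The gene rose 1.58-fold (log2 difference 0.66 ± 0.14, 95% CI 0.34 to 0.98, limma adjusted p = 0.0184). The control signals stood close to the filter level of 7.97, and with no detection calls they could not be told from background. Without control replicate 1 the difference was 0.52 and did not pass (adjusted p = 0.13). Most tested fibroblast, endothelial and adipocyte markers moved the same way in the same arrays, and their part in the Prrx1 difference was not tested.

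None of the other paired-type genes was called. Prrx2, its closest relative, lay under the filter at 7.41 and 7.60 in controls against 7.50 and 7.66 in knockouts, and the arrays of the groups overlapped. Pitx1, a hindlimb and pituitary gene, read 8.14 and 7.99 in controls against 7.99 and 8.10 in knockouts, a difference of -0.021 ± 0.15. Pitx3, a gene of lens and midbrain dopamine neurons, had a difference of -0.20 ± 0.16, and its arrays overlapped too. Alx1, Alx4 and Shox2 were under the filter, with differences between -0.051 and 0.0053.

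The promoter of Prrx1 is shown because it belongs to the member that rose. RefSeq promoters (build GRCm38.p6) were found for 58 of the 77 genes, as 72 promoters of 250 bases before the start of transcription, and Pbx3 has none in that table. They were searched on both strands for CCGTTA, the core bound by Ovol proteins, CACCTG, an E-box form bound by Zeb and Snail repressors, and TAATTA, a core bound by many homeodomains. Matches of TAATTA and of TAACGG, the reverse strand of CCGTTA, can overlap, as they do in the Tbx19 promoter. In the Prrx1 promoter (chr1:163313651-163313900, minus strand), the capitals mark a TAATTA match, and CCGTTA and CACCTG were not found in this window.
Prrx1 promoter: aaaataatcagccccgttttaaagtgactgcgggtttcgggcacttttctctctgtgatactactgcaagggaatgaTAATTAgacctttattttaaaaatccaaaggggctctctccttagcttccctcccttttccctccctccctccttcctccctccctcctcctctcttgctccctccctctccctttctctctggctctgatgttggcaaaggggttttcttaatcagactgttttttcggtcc
Over all members, CCGTTA was found in 4 of 72 promoters (5.56%), belonging to Lhx8, Satb1 and Tbx19, against 2.18% of all 32851 promoters. Both Satb1 promoters with a match overlap and share a single site, so the 4 promoters hold 3 distinct sites. CACCTG was found in 10 of 72 (13.9%, against 17.2% of all), and TAATTA in 4 of 72 (5.56%, against 4.84% of all), which were those of Msx2, Prrx1, Tbx6 and Tbx19. These are matches of letters only.

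The TALE genes, whose homeodomain carries an inserted loop of 3 amino acids, include the Hox cofactors of the Pbx and Meis families and the Iroquois genes. Pbx3, a Pbx partner of Hox proteins, read 10.56 and 10.68 in controls against 10.26 and 10.21 in knockouts. Both knockout arrays lay below both controls, with a gap of 0.30, and the spread within groups was 0.12 in the controls and 0.05 in the knockouts. The gene fell 1.31-fold (log2 difference -0.39 ± 0.067, 95% CI -0.54 to -0.24, limma adjusted p = 0.00745). Over the single-array omissions its difference lay between -0.44 and -0.33. Each omission leaves 1 array in a group, which is then assumed to vary like the other group, so the passes of such fits do not measure that group's spread. Lymphocyte markers also fell in these arrays. Of the 15 basal markers 3 fell, among them Nrg1 and Trp63, while 7 rose (median 0.21). The part of these markers in the Pbx3 difference was not tested.

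The other Pbx genes did not pass. Pbx2, which is broadly expressed, read 10.17 and 10.21 in controls against 10.22 and 10.17 in knockouts (difference 0.0059 ± 0.066, 95% CI -0.14 to 0.15). Pbx4 read 8.58 and 8.41 against 8.29 and 8.39, with a difference of -0.15 ± 0.13. The intervals of Pbx2 and Pbx3 did not overlap, though the difference between the 2 genes was not itself tested.

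Meis1, a Hox and Pbx cofactor, read 9.75 and 9.69 in controls against 9.86 and 9.86 in knockouts. The knockout arrays lay above the controls by 0.10, but the difference of 0.14 ± 0.073 did not pass (limma adjusted p = 0.277). Meis3 had a difference of 0.074 ± 0.13. Meis2 lay under the filter and was not tested with the others. It read 6.53 and 6.96 in controls against 7.51 and 7.92 in knockouts, so that both knockout arrays were higher by at least 0.55, and the plain difference was 0.97. All 4 readings lay under the filter level, where a signal could not be told from background. In a fit with no filter its adjusted p was 0.0134 (limma), and over the 4 single-array omissions of that fit the difference ran from 0.75 to 1.19. Most tested fibroblast, endothelial and adipocyte markers moved the same way in the same arrays, and their part in the Meis2 difference was not tested.

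The Meis2 promoter (chr2:116064620-116064869, minus strand) is shown because both knockout readings of this gene lay above both controls, at dim signal. None of the searched motifs was found in this window, so it has no capitals.
Meis2 promoter: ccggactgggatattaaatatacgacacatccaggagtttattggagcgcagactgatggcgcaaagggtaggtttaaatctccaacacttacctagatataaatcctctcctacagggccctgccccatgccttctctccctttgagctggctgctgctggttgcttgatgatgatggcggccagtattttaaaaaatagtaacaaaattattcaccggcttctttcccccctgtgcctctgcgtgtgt

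The Iroquois genes, which pattern limb, heart and neural tissue and lie in a pair of clusters, did not pass the threshold. Irx2 read 11.65 and 11.69 in controls against 11.73 and 11.78 in knockouts (difference 0.080 ± 0.051, 95% CI -0.034 to 0.19). Irx1 read 11.11 and 11.15 against 11.13 and 11.06 (difference -0.034 ± 0.056), and Irx4, the third gene of that cluster on chromosome 13, read 9.86 and 9.93 against 9.75 and 9.86 (difference -0.093 ± 0.076). The knockout arrays of Irx2 lay above its controls by 0.03, those of Irx1 overlapped, and those of Irx4 lay at or below its controls. In the cluster on chromosome 8, Irx3 read 10.75 and 10.82 against 10.86 and 10.84 (difference 0.061 ± 0.057). Irx5 read 10.71 and 10.66 against 10.71 and 10.75 (difference 0.045 ± 0.059), and Irx6 had a difference of -0.077 ± 0.16. Irx6 had the widest interval of the 6, and the 95% interval of each of the 5 other than Irx6 stayed within -0.26 and 0.19.

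**Figure D2:**
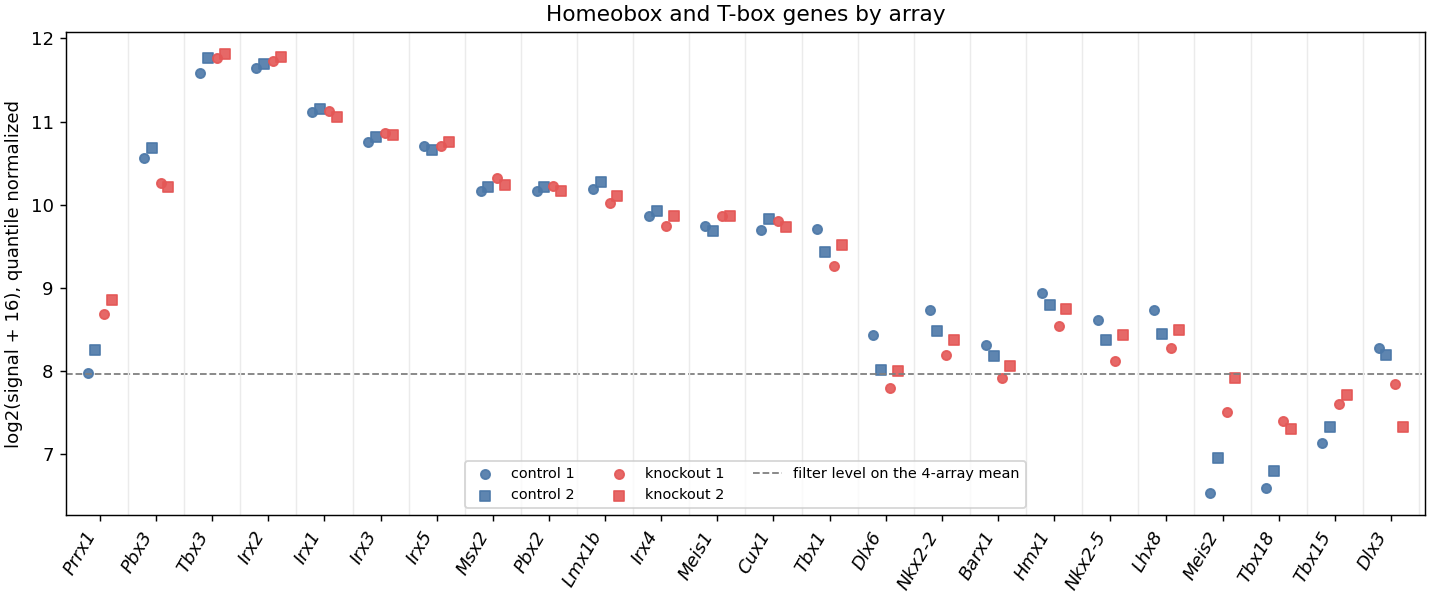
Log2(signal + 16) in each of the 4 arrays (y axis) for the 2 called genes, the 12 uncalled genes with the highest mean signal, the 6 tested genes with the largest difference that were not called, and 4 genes under the filter (x axis); the dashed line is the filter level of 7.97 for the mean over arrays. Knockout points (red) stand above the control points (blue) for Prrx1, Meis2, Tbx18 and Tbx15 and below them for Pbx3 and Dlx3, while those of Irx2, Irx1 and Tbx3 stand close to the controls.

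The T-box genes did not pass as far as they were tested, and held a pair of dim genes with higher knockout readings. Tbx3, which is required for the mammary placode, read 11.59 and 11.76 in controls against 11.77 and 11.81 in knockouts. The knockout arrays lay above the controls by only 0.01, and the difference of 0.11 ± 0.062 (95% CI -0.026 to 0.25) did not pass (limma adjusted p = 0.294). Tbx2, its close relative and a repressor like it, read 8.72 and 8.69 against 8.53 and 8.62, a difference of -0.13 ± 0.11. Tbx1, a gene of the pharyngeal arches, had a difference of -0.17 ± 0.12, and Tbx4, a hindlimb gene and the neighbour of Tbx2, had a difference of -0.13 ± 0.13.

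Of the 8 T-box genes under the filter, Tbx18, a gene of mesenchyme around the ureter and in the heart, read 6.59 and 6.80 in controls against 7.40 and 7.31 in knockouts. Both knockout arrays were higher by at least 0.52, and the plain difference was 0.66. With no filter its adjusted p was 0.0216 (limma), but without control replicate 1 that fit gave 0.56 and an adjusted p of 0.0967. Tbx15, a gene of skeletal and dermal mesenchyme, read 7.14 and 7.33 against 7.60 and 7.71. Its difference of 0.42 did not pass with no filter (limma adjusted p = 0.108). Among the 8 T-box genes under the filter, Tbx15 was the only other with both knockout readings above both controls. The remaining 6, which include the T-cell gene Tbx21 and the forelimb gene Tbx5, had differences between -0.11 and 0.10. Most tested fibroblast, endothelial and adipocyte markers moved the same way as Tbx18 and Tbx15 in these arrays, and their part was not tested.

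The Tbx18 promoter (chr9:87731261-87731510, minus strand) is shown because both knockout readings lay above both controls, again at dim signal, and it holds none of the searched motifs.
Tbx18 promoter: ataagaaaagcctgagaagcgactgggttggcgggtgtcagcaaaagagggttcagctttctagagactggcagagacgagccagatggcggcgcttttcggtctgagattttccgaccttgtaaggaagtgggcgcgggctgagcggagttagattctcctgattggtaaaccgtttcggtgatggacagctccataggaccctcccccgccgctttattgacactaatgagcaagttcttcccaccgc

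Msx and Dlx genes are targets of BMP and Wnt signals in skin appendages. Msx2, a transcriptional repressor expressed in the mammary bud, read 10.17 and 10.21 in controls against 10.32 and 10.24 in knockouts. The knockout arrays lay above by 0.03, and the difference of 0.090 ± 0.067 (95% CI -0.059 to 0.24) did not pass. Dlx5, a bone and limb gene, had a difference of -0.091 ± 0.13. Its neighbour Dlx6 read 8.44 and 8.01 against 7.80 and 8.0, and the difference of -0.32 ± 0.18 was -0.11 without control replicate 1 and did not pass.

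Dlx3, a gene of epidermal and hair follicle differentiation, had a mean just under the filter and was not tested with the others. It read 8.28 and 8.19 in controls against 7.84 and 7.33 in knockouts, so both knockout arrays were lower by at least 0.35, and the plain difference was -0.65. With no filter its adjusted p was 0.0448 (limma). In that fit it was -0.40 without knockout replicate 2 (adjusted p = 0.178), -0.91 without knockout replicate 1, and -0.61 without control replicate 1 (adjusted p = 0.108). Without the mean-variance trend and with no filter, the adjusted p was 0.18 for Dlx3, 0.126 for Meis2 and 0.084 for Tbx18 (limma). Dlx3 had a mean of 7.91, with Lhx3 at 7.91 and Lhx6 at 7.90 also just under the filter level of 7.97. Just above it were Pitx1 and Dlx6 at 8.06 and Nkx1-1 at 8.10. Msx1, Msx3, Dlx1, Dlx2 and Dlx4 were under the filter too, with differences from -0.20 to -0.098.

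LIM homeobox genes pair a homeodomain with LIM domains that bind Ldb cofactors. Lmx1b, which specifies the dorsal limb, read 10.19 and 10.27 in controls against 10.02 and 10.10 in knockouts. Both knockout arrays lay below by 0.09, but the difference of -0.17 ± 0.069 (95% CI -0.32 to -0.012) did not pass (limma adjusted p = 0.164). Lhx8, a gene of forebrain and tooth, read 8.74 and 8.45 against 8.28 and 8.50, with overlapping arrays (difference -0.21 ± 0.14). Lhx4 had a difference of -0.12 ± 0.14, and the 8 LIM genes under the filter ranged from -0.15 to 0.056.

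The Lhx8 promoter (chr3:154330561-154330810, minus strand) is shown because it holds the Ovol core, in capitals as TAACGG, the reverse strand of CCGTTA. The gene did not pass the threshold after Ovol2 loss, as given above.
Lhx8 promoter: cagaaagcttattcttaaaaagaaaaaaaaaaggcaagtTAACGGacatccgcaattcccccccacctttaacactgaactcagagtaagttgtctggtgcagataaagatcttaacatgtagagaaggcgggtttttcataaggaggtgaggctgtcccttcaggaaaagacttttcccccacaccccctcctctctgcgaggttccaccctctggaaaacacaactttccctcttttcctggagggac

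The NK-type genes, which pattern organs such as thyroid, heart and stomach, had mostly negative differences, with knockout replicate 1 the lowest array for nearly all of them. Of 10 tested members, 9 had a negative difference and 0 were called by limma, with a median of -0.18 and with 1 gene, Nkx2-2, at an unadjusted p below 0.05. Among all tested genes 6662 of 11963 differences were negative, 10.7% were called and 25.5% had such a p. Nkx2-2, a gene of ventral neural tube and pancreas, read 8.73 and 8.48 in controls against 8.20 and 8.38 in knockouts (difference -0.31 ± 0.14, limma adjusted p = 0.194). Barx1, a stomach mesenchyme gene, read 8.31 and 8.18 against 7.92 and 8.06 (difference -0.26 ± 0.15). The cardiac gene Nkx2-5 read 8.62 and 8.38 against 8.12 and 8.44 (difference -0.22 ± 0.15). Hmx1, an eye and ear gene, read 8.94 and 8.80 against 8.54 and 8.75 (difference -0.22 ± 0.12). Barx2 had a difference of 0.00063 ± 0.12.

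In the NK family, knockout replicate 1 was the lowest of the 4 arrays for 17 of 18 genes, and in the LIM family for 10 of 11. Over all 77 members this array was lowest for 44 genes, or 57.1%, against 29.7% of all genes on the array. Genes under the filter often had their lowest reading in it, at 46.7% of all such genes. Between the 40th and 60th percentile of mean signal it was lowest for 27.3% of tested genes, near the 29.7% of all genes. For brighter tested genes the share was 13.8%. Of the members, 63.2% of those under the filter and 16 of 25 (64%) in the band between the percentiles had their lowest reading there. Control replicate 1 was the highest array for 12 of 18 NK genes and for 50.6% of all members, against 36.4% of all genes on the array. Without knockout replicate 1 the NK median went from -0.18 to -0.077, with 8 of 10 negative. It was -0.11 with 10 of 10 negative without control replicate 1, and -0.29 without control replicate 2. Without knockout replicate 2 it was -0.30 with 10 of 10 negative, and the lung and thyroid gene Nkx2-1 passed at -0.41 (limma adjusted p = 0.0272), as did Tbx1 at -0.30 (adjusted p = 0.0498), in a fit where the knockout group is 1 array and the spread comes from the controls and the prior alone.

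**Figure D3:**
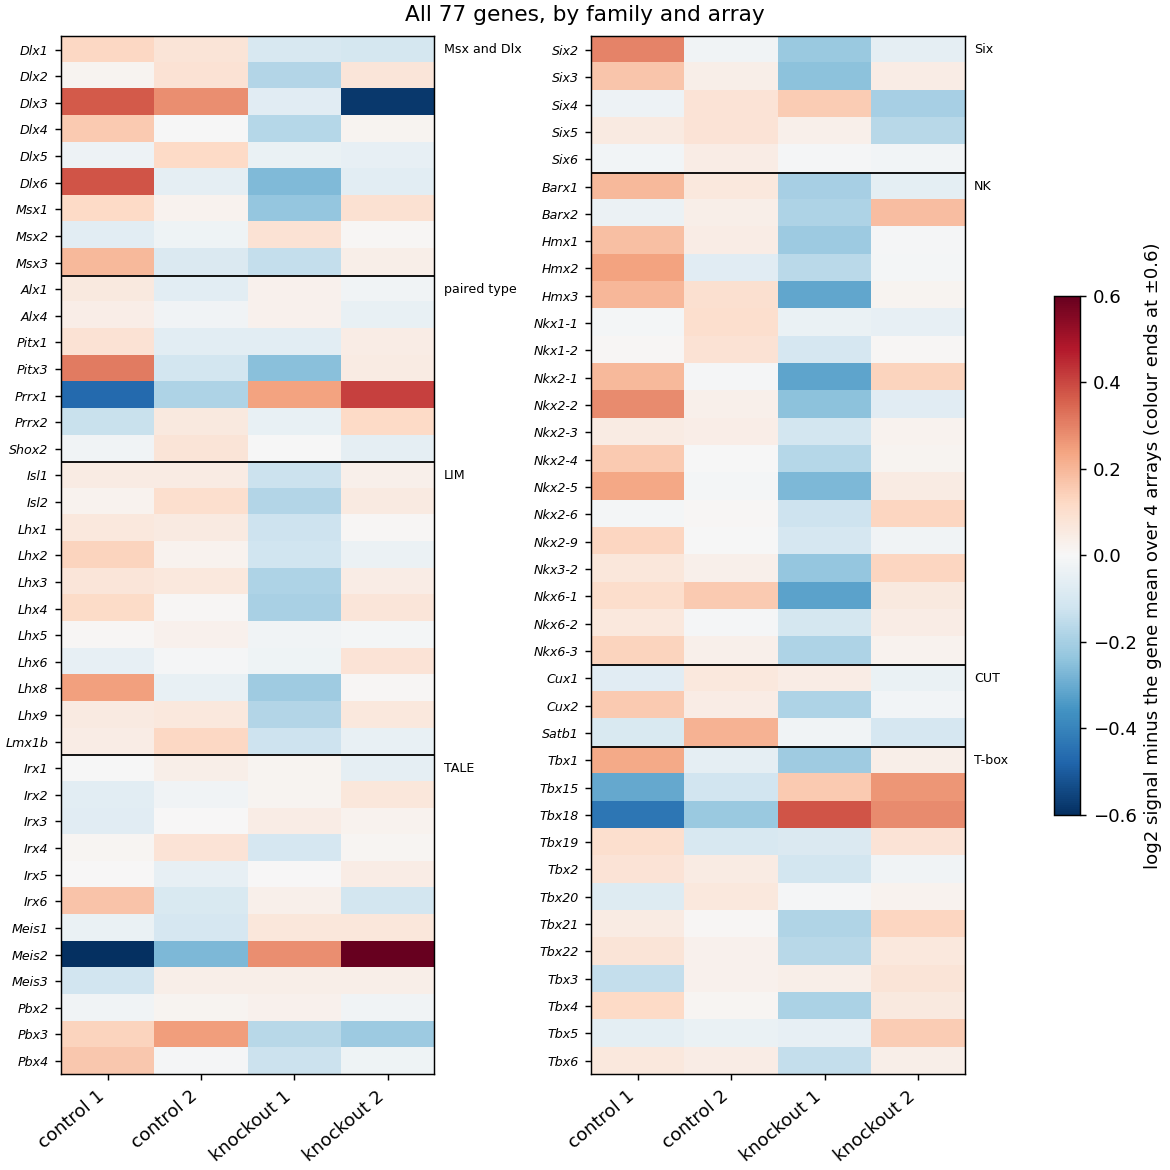
Log2 signal of each of the 77 genes (rows, grouped by family) in each of the 4 arrays (columns), as the deviation from the gene's mean over arrays, with red above and blue below. The knockout 1 column is blue for 17 of 18 NK and 10 of 11 LIM genes as the lowest array, while Prrx1, Meis2, Tbx18 and Tbx15 are red in both knockout columns.

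No gene of the Six2 to Six6 series or of the CUT class was called. Six5 read 8.93 and 8.96 in controls against 8.91 and 8.71 in knockouts (difference -0.13 ± 0.11), and Six4 had a difference of -0.045 ± 0.15. Six2, Six3 and Six6 were under the filter, at -0.27, -0.20 and -0.022. Cux1, a broadly expressed CUT repressor, read 9.70 and 9.83 against 9.81 and 9.73, a difference of 0.0020 ± 0.079 (95% CI -0.17 to 0.18). Its relative Cux2 differed by -0.20 ± 0.15, and Satb1, a chromatin organizer of T cells, read 8.24 and 8.54 against 8.31 and 8.23 (difference -0.12 ± 0.15).

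The precision differed with signal. The 12 uncalled members with the highest mean signal had a median SE of 0.066 and all 39 tested members one of 0.13. Those 12 had differences from -0.17 to 0.14 with 95% intervals within -0.43 and 0.30. From the 60th percentile of mean signal up, 1 of 14 tested members was called (7.14%), against 13% of all tested genes in that range. In the plot of difference against mean signal, most members lie at low mean signal, where the intervals are wide. Among the 38 members under the filter, 33 differed by less than 0.3, with a median of -0.099 against -0.083 for all 7975 genes under the filter. Both knockout readings lay above both controls for 3 of these 38 (10.6% of all genes under the filter) and below for 13 (28.9% of all).

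**Figure D4:**
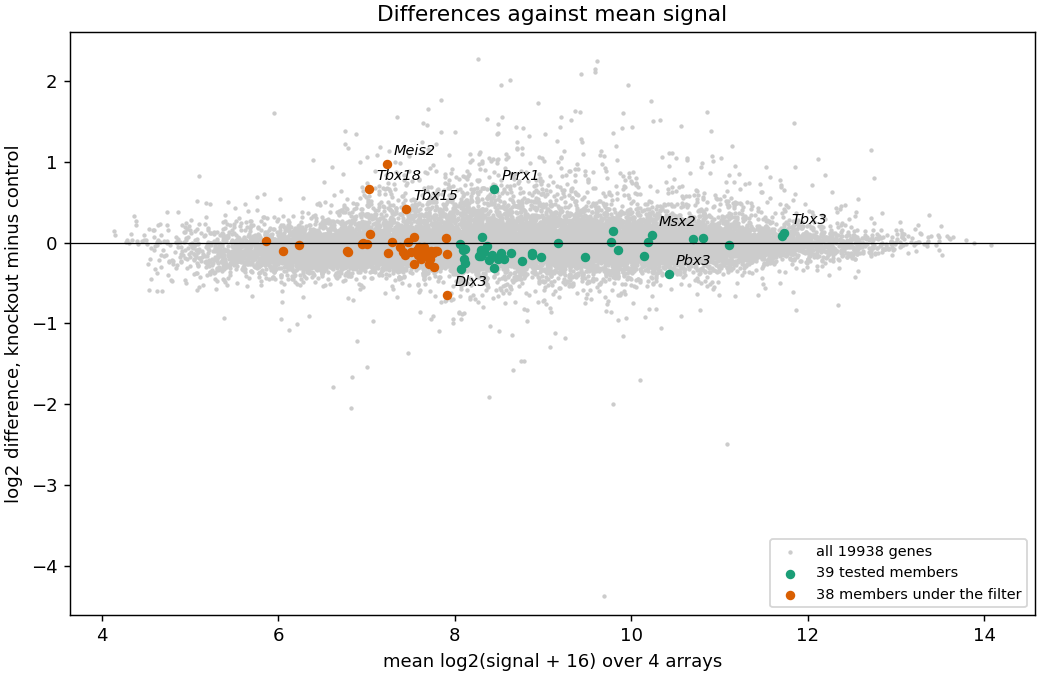
Log2 difference between knockout and control (y axis) against mean log2(signal + 16) over the 4 arrays (x axis) for all 19938 genes in grey, with the 39 tested members in green and the 38 under the filter in orange. Meis2 at 0.97 and Tbx18 at 0.66, under the filter, lie above most members and Dlx3 at -0.65 below them, and Prrx1 and Pbx3 are the tested members that passed the threshold.

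Members that lie next to each other among the protein-coding genes of a chromosome are set side by side here as values, with no test. Among neighbours of the Tbx genes, Tbx3 and Tbx5 differed by 0.11 and 0.10, and Tbx2 and Tbx4 both by -0.13. Among the Dlx pairs, Dlx3 stood at -0.65 beside Dlx4 at -0.15, Dlx1 and Dlx2 at -0.20 and -0.098, and Dlx6 and Dlx5 at -0.32 and -0.091. Neighbours of opposite sign were Irx1 and Irx2 at -0.034 and 0.080, Irx2 and Irx4 at 0.080 and -0.093, and Irx5 and Irx6 at 0.045 and -0.077. Each pair shares the same 4 arrays.

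Cofactors of these families and homeobox genes outside the rule were examined from lists chosen with earlier results of these data known. Of 25 tested cofactors, 2 rose, 2 fell and 21 did not pass (16% called, against 10.7% of all tested genes; median 0.017). Both that fell are LIM-only genes, which compete for the Ldb proteins that LIM homeobox factors need: Lmo1 read 9.36 and 9.36 in controls against 8.68 and 8.59 in knockouts (difference -0.72 ± 0.097, limma adjusted p = 0.00216). Lmo4 differed by -0.31 ± 0.055 (adjusted p = 0.00797). Those that rose were the LIM-binding cofactor Ldb2 at 0.61 ± 0.15 and its partner Ssbp2 at 0.32 ± 0.078. Their relatives Lmo2 at 0.27 ± 0.14, Ldb1 at 0.017 ± 0.049, Ssbp3 at -0.082 ± 0.062 and Ssbp4 at -0.09 ± 0.068 did not pass. Lmo3, under the filter, differed by -0.0039. Most tested fibroblast and endothelial markers also rose in these arrays, and their part in the differences of Ldb2 and Ssbp2 was not tested.

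Of 32 tested homeobox and T-box genes that the rule does not cover, 6 rose, 1 fell and 25 did not pass. Thus 21.9% of this list were called, against 10.7% of all tested genes, and its median was 0.015. Zeb1 had the largest rise of the list, at 2.01 ± 0.18, with both control readings under the filter level. Zeb2 rose by 0.70 ± 0.16, and the teashirt genes Tshz3 and Tshz2 by 0.60 ± 0.10 and 0.45 ± 0.11. The mesoderm gene Meox2 rose by 0.55 ± 0.14 and Zhx1 by 0.48 ± 0.079. Most tested fibroblast, endothelial and adipocyte markers also rose in these arrays, and their part in these differences was not tested. Meox1, the relative of Meox2, fell by 0.66 ± 0.18 on the log2 scale (limma adjusted p = 0.0448).

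Of 17 tested signals and responders of mammary bud formation, 3 rose, 2 fell and 12 did not pass. Thus 29.4% of this list were called, against 10.7% of all tested genes, and its median was -0.16. The BMP responders Id2 and Id1 rose by 0.44 ± 0.054 and 0.61 ± 0.14, and the FGF receptor gene Fgfr1 by 0.36 ± 0.061. A further BMP responder, Id3, had a difference of -0.29 ± 0.12 and did not pass (limma adjusted p = 0.151). The ligand genes Wnt6 and Bmp7 fell by 0.63 ± 0.13 and 0.34 ± 0.061 on the log2 scale. Another BMP ligand gene, Bmp4, had a positive difference of 0.71 ± 0.20 and did not pass (limma adjusted p = 0.0542). In the same arrays Msx2 and Tbx3 had the differences of 0.090 and 0.11 given above, and neither passed.

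The calls of Prrx1 and Pbx3 depended on the variance model. With a variance prior that ignores the trend with signal, 0 of 39 members passed (limma; 4 at an unadjusted p below 0.05, and the lowest adjusted p of a member was 0.0643), while 188 of all tested genes did. In the plot of both genes under each setting, the differences kept their sign, which only the other normalizations and offsets could have changed.

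**Figure D5:**
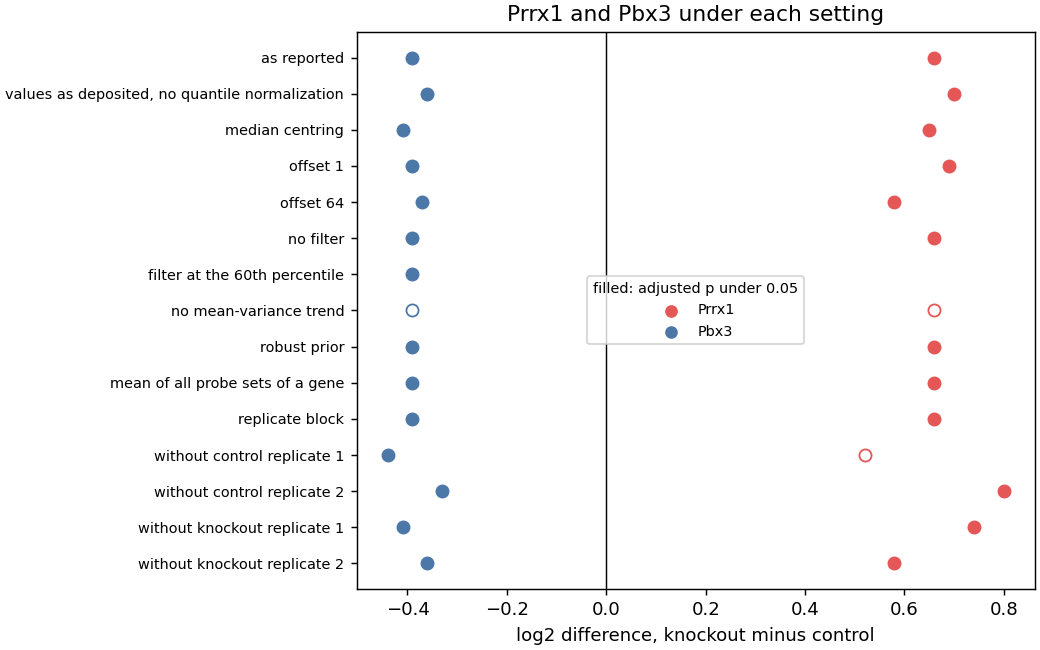
Log2 difference of Prrx1 and Pbx3 (x axis) as reported and under 14 other settings (y axis), with filled points where the adjusted p is below 0.05. Prrx1 lies between 0.52 and 0.80 and Pbx3 between -0.44 and -0.33, and the open points are both genes without the mean-variance trend and Prrx1 without control replicate 1.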

How the data were processed

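Total RNA was hybridised to 4 Affymetrix arrays, 2 per group. The authors deposited a linear signal intensity for each probe set. Per the submitters' processing notes it was made with Expression Console (version 1.1.1) and PLIER (version 2.0). The genome build is not given in the sources used here, nor are background correction, normalization and offset, and no detection calls were used. The 35556 probe sets had array medians of 252 to 272. The number of arrays limits the precision.

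Here, log2(signal + 16) was quantile normalized over all probe sets in limma version 3.58.1 (R version 4.3.3). Probe sets with 1 gene symbol in the platform annotation (21789, against 1621 with several and 12146 unlisted) were kept, the brightest per gene, and genes with a mean under the 40th percentile (7.97, or about 235 in linear signal) were not tested. Groups were compared two-sided by lmFit and eBayes (mean-variance trend on), with Benjamini-Hochberg adjustment over 11963 genes. The fit has 2 residual degrees of freedom and borrows 7.58 from other genes. An exact permutation of 2 against 2 arrays cannot give a p below 0.333 and was not used. The labels call the arrays biological replicates. The script was tested on simulated data.

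The members and all lists were chosen with earlier results of these data known. Named were all members past the threshold, of the others the 12 with the highest mean and the 6 with the largest difference, and members under the filter whose groups were apart by over 0.3. All further members were named family by family after their values were seen. The alternatives were other normalizations, offsets, filters and variance priors, the mean of all probe sets, a replicate block and leaving out each array.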

Additional observations from a re-analysis of the deposited data

How the results depend on the processing

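Alternative runs numbered 13 for Prrx1 and 14 for Pbx3, because the filter at the 60th percentile removed Prrx1. The differences of both genes kept their direction, but most of these runs could not have changed it. Filters, variance priors, the replicate block and the mean of probe sets leave the difference of a gene with 1 probe set as it was. Leaving out 1 array cannot reverse it where the groups of arrays do not overlap. Only the other normalizations and offsets could have done so. Adjusted p (limma) ranged from 5.14e-05 to 0.13 for Prrx1 and from 3.08e-07 to 0.0684 for Pbx3. The count of called members was 2 in the reported fit. It was 5 with no filter (3 higher and 2 lower: Meis2, Tbx18 and Dlx3 were added), 1 with the filter at the 60th percentile (0 higher), and 0 without the mean-variance trend (0 higher, 0 lower; 4 members at an unadjusted p below 0.05). Leaving out 1 array gave 1 to 4 called members, 0 to 1 higher and 1 to 3 lower: 1 without control replicate 1 and 4 without knockout replicate 2. Of all tested genes, 1285 were called (753 higher, 532 lower), against 753 with median centring (480 higher, 273 lower) and 188 without the trend (143 higher, 45 lower). Leaving out 1 array gave 476 to 2347 called genes, 320 to 1168 higher and 156 to 1179 lower, with 476 without control replicate 1 and 2347 without knockout replicate 1. Values as deposited, which moved the median of all tested genes from -0.022 to 0.0065, called the same 2 members among 39. With the replicate number as a block, 2246 genes were called (1170 higher, 1076 lower) and the same 2 members; the labels give no shared litter or batch behind the numbers, and the deviations of same-numbered arrays correlated with r = -0.20 across genes, so they were not taken as pairs. No called member changed sign. Of the others, with values as deposited Pitx1 was 0.025 and Six4 0.0065, with median centring Pbx2 was -0.014, Barx2 -0.011 and Cux1 -0.026. Leaving out 1 array gave a range across 0 for Pitx1 (-0.097 to 0.054), Pitx3 (-0.41 to 0.010), Lhx4 (-0.25 to 0.012), Irx1 (-0.073 to 0.0054), Irx6 (-0.21 to 0.056), Meis3 (-0.0010 to 0.15), Pbx2 (-0.022 to 0.033), Six4 (-0.22 to 0.13), Barx2 (-0.19 to 0.19), Nkx2-1 (-0.41 to 0.040), Cux1 (-0.061 to 0.065) and Satb1 (-0.27 to 0.031). The cause of these changes was not tested.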
